A study of Mus musculus with 57 samples.

Results

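H3K4me3 and H3K27ac were compared in the gastrocnemius, a fast-twitch calf muscle, of PSAPP mice aged 13 months. PSAPP mice carry a mutant human presenilin 1 together with a chimeric mouse and human mutant amyloid precursor protein, and serve as a model of Alzheimer's disease. The 20 libraries are those titled with either mark and gastrocnemius, replicates 1 to 10, of 57 libraries in the whole series. The titles' replicate number stands for the same animal code in both marks, so each of the 10 animals gave a pair, and chromosomes 1 to 19 were analyzed. All animals shared the transgenes, the age, single housing and a modified AIN-93 diet from 6 months, and both sexes were included; no animal without the transgenes was part of these data. The H3K27me3 libraries of the same 10 muscles and the 9 cortex libraries of each active mark were used only as a reference. Muscle was taken whole, and in bulk tissue fewer cells carrying a mark and less of the mark per cell cannot be told apart.

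Both marks are found at active genes, but they are written by different enzymes and occupy different ground. H3K4me3, trimethylation of lysine 4 of histone H3, is deposited by the SET1 and MLL complexes around transcription start sites (TSSs), preferentially where CG dinucleotides are dense. H3K27ac, acetylation of lysine 27, is deposited mainly by p300 and CBP at active promoters and also at active enhancers far from them, and it excludes H3K27me3, the Polycomb mark, from the same residue. Promoters that carry H3K4me3 together with H3K27me3 are called bivalent and are typical of silent developmental genes.

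The deposited value of each peak is the number of reads (fragments) counted in it. Reads in autosomal peaks ranged from 9025744 to 14768754 per H3K4me3 library and from 15585403 to 27042958 per H3K27ac library, and values per gene are given as RPM, relative to the reads in all autosomal peaks of the same library. The H3K4me3 libraries of animals 3 and 6 covered 108 and 106 Mb, against 70.7 to 98.1 Mb in the other 8 animals. In these 2 libraries the H3K4me3 peak exceeded 2 times its median width at 795 and 782 promoters, against 13 to 219 in the others. The tissue label was checked against its markers: all 10 myofibre markers had a promoter peak of both marks in every animal, as did 55.2% of all genes. Their summed level was 848 to 2390 RPM of H3K4me3 and 1508 to 2709 RPM of H3K27ac. Both marks were also present in every animal at 7 of 7 endothelial and 5 of 6 fibroblast markers. Of 6 macrophage markers, Ptprc, Adgre1, Lyz2 and Itgam had no promoter peak of either mark in any animal, while Cd68 had H3K4me3 in 9 animals and H3K27ac in 10, and Csf1r in 4 and 3. Of 6 neuron markers, Snap25 and Nefl had neither mark, Stmn2 had both in 10 animals, Syt1 had H3K4me3 in 10 and H3K27ac in 0, Tubb3 had them in 10 and 9, and Rbfox3 in 3 and 0. The summed macrophage level ran from 0 to 52.1 RPM of H3K4me3 and from 37.3 to 73.8 RPM of H3K27ac, and the summed neuron level from 32.4 to 38.3 and from 6.34 to 58.8 RPM. Their part in the results was not tested.

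H3K27ac formed more and wider peaks than H3K4me3 in each animal. H3K4me3 gave 24680 ± 2744 peaks and H3K27ac 53319 ± 5989 (mean ± SD, n = 10 animals). The median peak width was 2860 ± 389 bp for H3K4me3 and 3960 ± 665 bp for H3K27ac. H3K4me3 peaks covered 85.8 ± 13.7 Mb and H3K27ac peaks 340 ± 36.8 Mb, a difference of 254 ± 26.5 Mb. With each library reduced to its 20776 highest-scoring peaks, the number in the smallest library, the widths were 3180 ± 416 and 8110 ± 1108 bp and the covered lengths 79.1 ± 10.9 and 236 ± 37.6 Mb. Reads per length of peak were higher for H3K4me3, with 154 ± 29.6 reads per kb of peak against 56.7 ± 5.92. Each of these differences in number, width and covered length had the same sign in 10 of 10 animals, and the two-sided exact paired permutation test gave p = 0.00195, the smallest value that 10 pairs allow (adjusted p = 0.00217 over the 10 single-value tests).

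**Figure D1:**
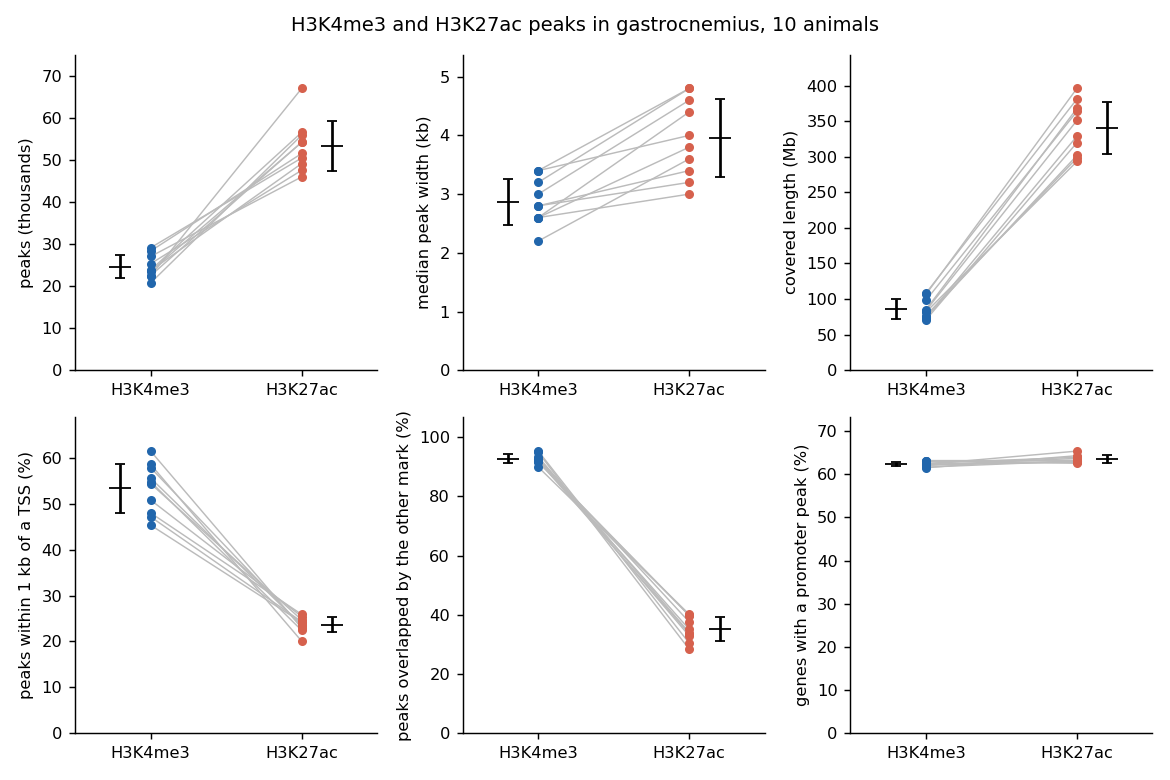
Peaks of H3K4me3 (blue) and H3K27ac (red) in 10 animals, with number of peaks, median width in kb, covered length in Mb and shares in percent on axes that start at 0. Grey lines join the libraries of an animal and black bars give mean ± SD; the lines run the same way in all 10 animals in every panel but the last, where means of 62.4% and 63.5% lie close together and 1 animal runs the other way.

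The marks also lay at different distances from genes. Of the H3K4me3 peaks, 53.5 ± 5.38% came within 1 kb of an annotated TSS, against 23.7 ± 1.67% of the H3K27ac peaks, and the H3K4me3 share was higher in 10 of 10 animals (exact paired permutation test, p = 0.00195, adjusted p = 0.00217). With 20776 peaks per library the shares were 61.3 ± 0.828% and 49.5 ± 1.02%. Among the remaining peaks, the median distance to the nearest TSS was 20.9 ± 0.613 kb for H3K4me3 and 24.1 ± 0.562 kb for H3K27ac, a difference of 3.29 ± 0.886 kb with the same test result. Promoter peaks held 86.0 ± 2.08% of all H3K4me3 reads but 55.2 ± 2.23% of H3K27ac reads, with ranges of 83.3 to 88.4% and 50.6 to 58.5% that did not overlap.

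A peak of H3K27ac in the same animal overlapped 92.7 ± 1.57% of H3K4me3 peaks, whereas H3K4me3 overlapped 35.1 ± 4.11% of H3K27ac peaks, a difference in 10 of 10 animals (exact paired permutation test, p = 0.00195, adjusted p = 0.00217). With each library reduced to its 20776 highest-scoring peaks the shares were 79.8 ± 2.05% and 64.7 ± 1.43%. By length, 92.7 ± 0.867% of the H3K4me3 territory was covered by H3K27ac and 23.3 ± 2.10% of the H3K27ac territory by H3K4me3. In 74.6 ± 3.79% of cases the H3K4me3 peak sat wholly inside an H3K27ac peak, and the reverse held for 3.06 ± 0.639% of H3K27ac peaks. Of the H3K27ac peaks that held any H3K4me3, 14.7 ± 3.34% held 2 or more separate H3K4me3 peaks. The same measure taken with another animal's H3K27ac ranged from 89.1 to 93.7%, overlapping the 90.8 to 93.7% of the own pairs.

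Distance to a TSS separated the marks. Within 1 kb of a TSS, 93.3 ± 1.31% of H3K4me3 peaks and 91.7 ± 1.04% of H3K27ac peaks overlapped the other mark. At 1 to 5 kb the H3K27ac share was 20.6 ± 3.05%, at 5 to 50 kb 16.9 ± 3.70%, and beyond 50 kb 18.1 ± 4.60%. The H3K4me3 share stayed between 87.6 ± 2.88%, beyond 50 kb, and 93.7 ± 1.46%, at 5 to 50 kb. An H3K4me3 peak away from annotated promoters thus lay mostly under H3K27ac, while most H3K27ac peaks away from promoters had no H3K4me3 called.

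**Figure D2:**
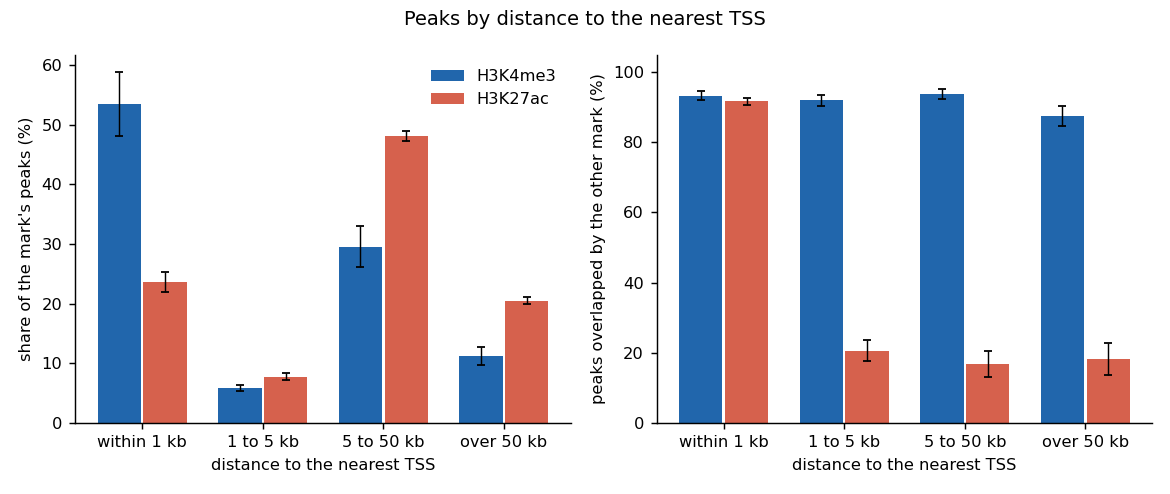
Share of each mark's peaks by distance to the nearest TSS (left) and share of them overlapped by the other mark in the same animal (right), in percent; bars give the mean and lines the SD over 10 animals. H3K27ac drops from 91.7% overlapped within 1 kb to 16.9 to 20.6% in the farther bins, and H3K4me3 does not fall under 87.6%.

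Peaks with a single mark were of unlike kinds. Per animal, 1833 ± 568 H3K4me3 peaks had no H3K27ac; they were 1480 ± 193 bp wide at the median, held 1.29 ± 0.340% of H3K4me3 reads, and 49.1 ± 5.65% were promoter peaks. Of these, 68.4 ± 7.02% overlapped an H3K27me3 peak of the same muscle, against 16.2 ± 2.92% of the H3K4me3 peaks with H3K27ac. The H3K27ac peaks without H3K4me3 numbered 34801 ± 6004, were 3440 ± 564 bp wide and held 29.0 ± 3.73% of H3K27ac reads. Only 3.02 ± 0.239% of those were promoter peaks, and 72.6 ± 0.972% of the others lay in gene bodies; 9.11 ± 2.79% overlapped H3K27me3. Sites called in all 10 libraries of a mark with no peak of the other mark in any animal numbered 296 for H3K4me3 and 4852 for H3K27ac, of which 78 and 4640 lay beyond 1 kb of a TSS.

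At promoters the marks mostly coincided. Each of 23241 curated RefSeq genes was given a single TSS, and a gene was counted as marked when a peak came within 1 kb of it. Per animal, 13613 ± 120 genes had both marks, 889 ± 168 only H3K4me3, 1151 ± 116 only H3K27ac and 7588 ± 99.1 neither. With 20776 peaks per library 2053 ± 125 genes had only H3K4me3 and 618.5 ± 108 only H3K27ac, so the order of these classes turned. H3K27ac was called at 63.5 ± 0.842% of genes and H3K4me3 at 62.4 ± 0.575%, a difference of 1.13 ± 1.17 percentage points that was above 0 in 9 of 10 animals (exact paired permutation test, p = 0.0137, adjusted p = 0.0137). This small difference is the least stable of the comparisons: it was −6.17 percentage points when each library was reduced to its 20776 highest-scoring peaks, and 0.121 with p = 0.734 in the exact paired test over protein-coding genes alone.

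Promoters that carried H3K4me3 without H3K27ac were mostly Polycomb promoters. In the same animal, an H3K27me3 peak was present at 83.9 ± 3.60% of promoters with H3K4me3 only and at 17.2 ± 1.99% of promoters with both marks. The difference was 66.7 ± 2.14 percentage points and held in 10 of 10 animals (exact paired permutation test, p = 0.00195, adjusted p = 0.00217). Promoters with H3K27ac only carried H3K27me3 in 25.9 ± 6.42% and those with neither in 30.9 ± 6.41%. H3K4me3 was itself low at these promoters, so genes were also split into 5 equal groups by H3K4me3 RPM within each animal. In the lowest group, 41.1 ± 7.51% of promoters with H3K27me3 lacked H3K27ac, against 12.4 ± 3.76% of those without H3K27me3. In the next group the shares were 3.23 ± 1.42% and 0.0455 ± 0.0421%, and in the upper 3 groups both means stayed under 1%.

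Over all animals, 12837 genes (55.2%) had both marks in 10 of 10 animals, 228 (0.981%) had H3K4me3 in all and H3K27ac in none, 313 (1.35%) had H3K27ac in all and H3K4me3 in none, and 6604 (28.4%) had neither in any. The other 3259 varied between animals. The 2 classes with a single constant mark differed in what the calls had not used. Of the 228 genes with H3K4me3 alone, 175 (76.8%) had a promoter H3K27me3 peak in all 10 muscles, against 11 (3.51%) of the 313 with H3K27ac alone and 967 (7.53%) of those with both. The median number of CG dinucleotides in the 250 bases before the TSS was 18.5 for H3K4me3 alone, 17 for both marks, 3 for H3K27ac alone and 2 for neither. The letters TATAAA, sought on both strands, occurred in 3.51%, 5.89%, 8.31% and 24.4% of these classes and in 11.7% of all 23241 promoters. For CAGCTG, an E-box of the myogenic factors, likewise on both strands, they were 14.9%, 11.8%, 15.3% and 10.96%, with 12.2% of all. These are counts of letters and no test was made on them.

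**Figure D3:**
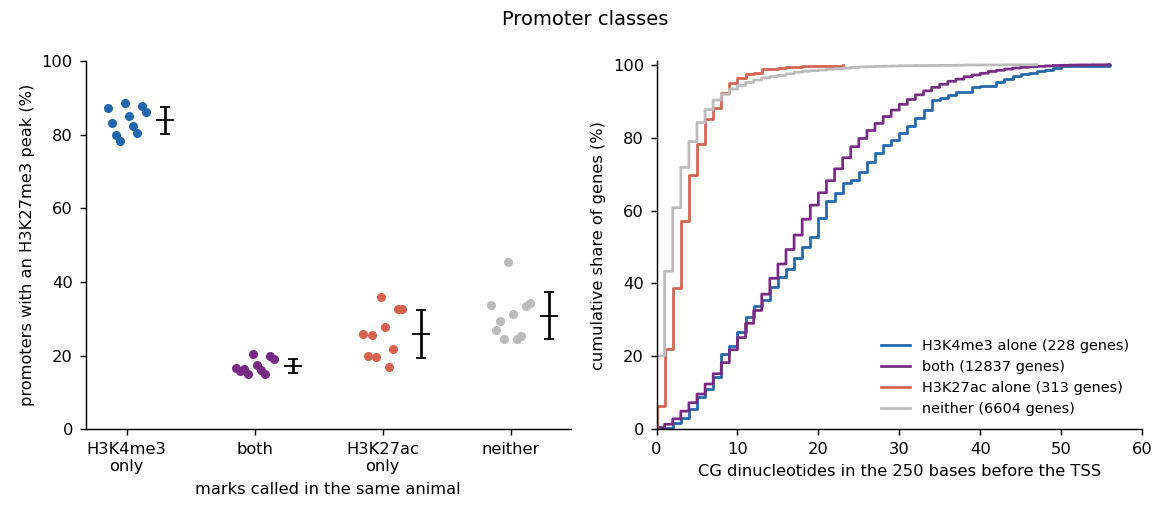
Left, share of promoters with an H3K27me3 peak (percent) by the active marks called in the same animal, 10 animals per class, with mean ± SD. Right, cumulative share of genes (percent) by the number of CG dinucleotides in the 250 bases before the TSS, for genes constant in all animals; H3K27ac alone (median 3) runs with neither (median 2), and H3K4me3 alone (18.5) with both (17).

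By the naming rule, the 10 genes with the highest H3K4me3 among those with H3K4me3 alone were Gm2694, Hmga2, Sall3 with the adjoining Gm27239, Nol4, Nkx1-1, Celf4, Onecut2, Insm1 and Gm3134, and all 10 had H3K27me3 in 10 of 10 muscles. Hmga2 encodes a fetal chromatin protein, and its promoter on chromosome 10 (TSS 120476469, minus strand) held 16.9 to 32.6 RPM of H3K4me3 (median 27.5). Insm1, a zinc finger factor of neuroendocrine cells (chromosome 2, TSS 146221997, plus strand), held 15.5 to 29.2 RPM (median 20.2). Nkx1-1, a homeobox gene, held 14.3 to 27.3 RPM (median 22.1). In the cortex, H3K27ac was called at Insm1, Nol4 and Celf4 in 9 of 9 libraries, at Sall3 and Onecut2 in 8, at Nkx1-1 in 1 and at Hmga2 in 0. Of all 228 genes, 143 (62.7%) had cortical H3K27ac in 9 of 9 libraries, near the 60.8% of all genes. Of the 16 listed developmental transcription factors, 3 had both marks, 9 varied between animals and Tbx5 had neither, while Foxa2 and Dlx5 were among those with H3K4me3 alone. Among all 228 genes the median distance from the TSS to the nearest H3K27ac peak was 90.1 kb (quartiles 41.3 and 203 kb).

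Starts with H3K27ac alone lay closer to the other mark. Of the 313 genes, 110 (35.1%) had a promoter H3K27ac peak that met no H3K4me3 peak in any animal, 27 (8.63%) had one that met H3K4me3 elsewhere along its length in all 10, and the rest varied. The median distance from the TSS to the nearest H3K4me3 peak was 9.20 kb (quartiles 4.73 and 18.7 kb), against 90.1 kb in the opposite class. Widening the promoter to 2.5 kb kept 239 of the 313 genes in this class and 226 of the 228 with H3K4me3 alone. In the cortex, 86.6% of the 313 had no H3K4me3 in any library, against 34.1% of all genes, and 44.1% had H3K27ac in all 9, against 60.8% of all genes.

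The 10 leading genes of this class were Pitpnm2os1, Cyp2w1, Gp1ba, H1f8, G630071F17Rik, Apol8, 1700013G24Rik, Gdpd3, 4921511C10Rik and Lhb. The platelet receptor gene Gp1ba lay in an acetylated domain with a mean width of 59780 bp that in every animal also held the TSSs of Pfn1, Slc25a11 and the muscle enolase gene Eno3, and its 281 to 491 RPM of H3K27ac (median 333) equalled those of Eno3. Gdpd3 shared its median of 358 RPM with the muscle aldolase gene Aldoa, but not its range. Gdpd3 held 6.08 to 439 RPM and Aldoa 273 to 439 RPM, and the 2 did not share a domain in every animal. For Cyp2w1, a cytochrome P450 gene, H3K27ac ranged from 21.7 to 500.2 RPM (median 427), and H3K27me3 was called in 8 of 10 muscles. Neb, which encodes the thin filament ruler nebulin, was the only member of the sarcomere lists in the class. Its annotated start (chromosome 2, TSS 52338798, minus strand) held 58.7 to 204 RPM of H3K27ac (median 117), and the nearest H3K4me3 lay at a median of 1.798 kb, inside the same acetylated domain in 10 of 10 animals. The absence of promoter H3K4me3 at Neb thus refers to the 1 kb limit. The 250 bases before 2 of these starts, read from the mm10 reference (GRCm38.p6), are shown because of their low CG content, with CG in capitals; Neb is chr2:52338799-52339048 on the minus strand and Cyp2w1 chr5:139352366-139352615 on the plus strand, with 5 CG each.
Neb: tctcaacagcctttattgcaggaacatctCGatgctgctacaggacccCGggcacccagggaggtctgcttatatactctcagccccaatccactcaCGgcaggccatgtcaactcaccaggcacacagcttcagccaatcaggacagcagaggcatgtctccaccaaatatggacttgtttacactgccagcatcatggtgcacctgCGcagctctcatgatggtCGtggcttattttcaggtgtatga
Cyp2w1: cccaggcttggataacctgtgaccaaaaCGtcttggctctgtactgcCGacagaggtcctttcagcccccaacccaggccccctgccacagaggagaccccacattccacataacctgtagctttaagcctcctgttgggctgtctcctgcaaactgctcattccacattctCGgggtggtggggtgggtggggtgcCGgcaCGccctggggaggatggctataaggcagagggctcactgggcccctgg

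Where both marks were present, H3K27ac reached farther to either side. At shared promoters the median peak width was 4080 ± 559 bp for H3K4me3 and 8350 ± 1897 bp for H3K27ac, and H3K27ac was wider at 84.4 ± 3.86% of genes. The median over genes of the log2 width ratio was 0.93 ± 0.18, above 0 in 10 of 10 animals (exact paired permutation test, p = 0.00195, adjusted p = 0.00217). Both marks extended more into the gene than away from it. H3K4me3 reached a median of 2301 ± 284 bp downstream and 1515 ± 217 bp upstream of the TSS, and H3K27ac 4366 ± 936 bp and 2755 ± 563 bp. The median downstream minus upstream reach was 766.5 ± 69.5 bp for H3K4me3 and 1209 ± 215 bp for H3K27ac, a difference of 442.5 ± 167 bp in 10 of 10 animals with the same p. This reach is in bp and was not scaled to peak width, so it does not show a stronger skew of the wider H3K27ac peaks. Within an animal, the levels of the marks over these genes were related: Spearman's rho was 0.601 to 0.645 for RPM, 0.573 to 0.650 for width and 0.392 to 0.531 for reads per length, given as a description over 12837 genes whose peaks share libraries.

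To ask which genes hold more of one mark than of the other, the reads of promoter peaks were compared within animals for the 12837 genes with both marks. The log2 balance, H3K27ac over H3K4me3 after TMM scaling, is 0 for a gene with the typical ratio, not for a gene with equal RPM: the median gene had 73.2 RPM of H3K4me3 and 36.9 RPM of H3K27ac. By edgeR's quasi-likelihood test with the animal as block, at an FDR under 0.1 and at least 2-fold, 2357 genes (18.4% of those tested) were called toward H3K27ac and 1491 (11.6%) toward H3K4me3. The median balance was −0.10, with quartiles of −0.67 and 0.68. Under scaling by total reads the median was −1.04 and the calls were 764 toward H3K27ac and 6601 toward H3K4me3, so each direction below is relative to the typical gene. With DESeq2 they were 2727 and 935, a larger share toward H3K27ac than in the edgeR fit (74.47% against 61.25% of all calls). Without animals 3 and 6, a choice made after seeing the data, they were 2369 and 1304.

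The balance moved with peak width. Genes called toward H3K27ac had median peaks of 5100 bp (H3K4me3) and 27700 bp (H3K27ac), and genes called toward H3K4me3 of 3100 and 3200 bp. When only the part of each peak within 2.5 kb of the TSS was counted, with reads spread evenly over the peak, 954 genes (7.43%) were called toward H3K27ac and 59 (0.46%) toward H3K4me3. Of the whole-peak calls, 744 and 46 were kept in the same direction and none turned. An H3K27me3 peak was present in 10 of 10 muscles at 253 (16.97%) of the genes called toward H3K4me3, 127 (5.39%) of those called toward H3K27ac and 967 (7.53%) of all tested. The CG count before the TSS was 17 at the median for genes toward H3K4me3 and 14 for genes toward H3K27ac.

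**Figure D4:**
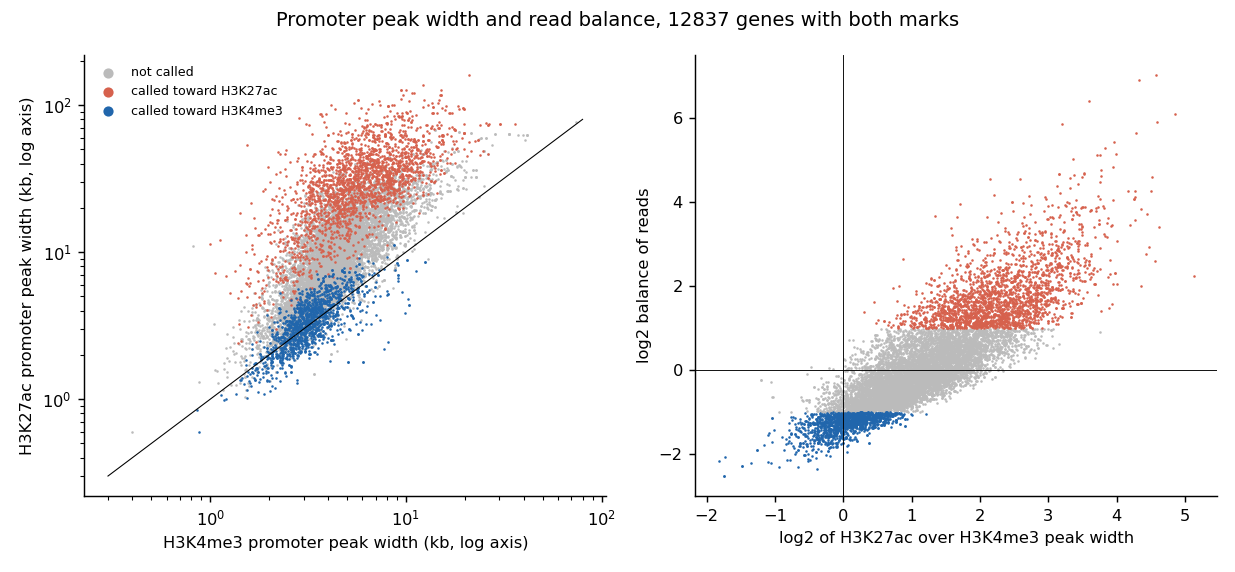
Each point is a gene with both marks in 10 of 10 animals. Left, mean promoter peak width of H3K27ac against H3K4me3 in kb on log axes, with the line of equal width; right, log2 balance of reads against the log2 ratio of the widths. Genes called toward H3K27ac (red, 2357) lie above the line of equal width, and genes called toward H3K4me3 (blue, 1491) lie near it.

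Genes of the contractile apparatus were tilted toward H3K27ac. Of 13 fast fibre sarcomere genes, all with both marks in every animal, 9 were called toward H3K27ac and none toward H3K4me3 (18.4% and 11.6% of all tested genes), with a median balance of 1.35. With the 2.5 kb count 5 of 13 were called (background 7.43%) and the median was 0.79. Tnnt3, the fast troponin T gene, held 120 to 322 RPM of H3K4me3 (median 182) and 281 to 408 RPM of H3K27ac (median 330). H3K27ac was the higher in 10 of 10 animals although the ranges overlapped, and the balance was 1.71 ± 0.11 (SE, n = 10; edgeR quasi-likelihood test, Benjamini-Hochberg adjusted p = 7.38e-08) with 1.18 in the 2.5 kb count. Acta1, the skeletal actin gene, had a balance of 1.498 ± 0.14, with medians of 111 and 194 RPM, and stood at 0.26 in the 2.5 kb count. The creatine kinase gene Ckm held 72.6 to 234 RPM of H3K4me3 (median 104.5) and 98.2 to 180 RPM of H3K27ac (median 136), and its balance was 1.19 ± 0.11, or 0.45 in the 2.5 kb count. Among the fast myosins, Myh4, the fastest isoform, had a balance of 1.503 ± 0.18, Myh1 of 1.85 ± 0.20 and Myh2 of 1.10 ± 0.16, and with the 2.5 kb count they stood at 1.05, 1.82 and 1.79. Actn3, which encodes the Z-disc protein of fast fibres, was not called (balance 0.28 ± 0.12), nor were the myosin light chain gene Mylpf (0.57 ± 0.08) and Ttn, which encodes titin (0.74 ± 0.10).

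Of 10 slow fibre genes, 4 had both marks in all animals (55.2% of all genes), while 6 varied between animals (14.0% of all genes). All 4 were called toward H3K27ac (18.4% of all tested genes). In the 2.5 kb count 3 of the 4 were called (background 7.43%), and under total reads 1 was (background 5.95%). The slow myosin gene Myh7 had H3K4me3 in 4 animals, H3K27ac in 8 and H3K27me3 in 10. Tnnc1, the slow troponin C gene, held 94.5 to 108 RPM of H3K4me3 (median 103) and 138 to 280 RPM of H3K27ac (median 191). Its ranges did not overlap and its balance was 1.98 ± 0.13, but with the 2.5 kb count Tnnc1 stood at −0.056. Its acetylated peak had a mean width of 58660 bp, and both marks' peaks also covered the start of Nisch in every animal.

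Among 11 tested Z-disc and giant sarcomere genes, 5 were called toward H3K27ac and none toward H3K4me3 (18.4% and 11.6% of all tested genes), with a median balance of 0.99. The 2.5 kb count called 3 of the 11 toward H3K27ac (7.43% of all genes), and the scaling by total reads called 3 (5.95% of all genes, with 51.4% toward H3K4me3); of the list Tcap alone was called under both. Tcap, which anchors titin, had the largest: 33.3 to 82.6 RPM of H3K4me3 (median 50.1) against 171 to 273 RPM of H3K27ac (median 249), without overlap, and a balance of 3.10 ± 0.10 that remained at 1.45 in the 2.5 kb count. Des, the desmin gene, stood at 2.83 ± 0.24, or 0.86 in the 2.5 kb count, with an acetylated domain of 95740 bp that also held the starts of Speg and Gm15179 in every animal. Myoz1, a fast fibre calsarcin, had a balance of 2.99 ± 0.29 and ranged from 100 to 845 RPM of H3K27ac between animals. Of 12 calcium handling genes, 7 were called toward H3K27ac and none toward H3K4me3. In the 2.5 kb count 1 of them was called toward H3K27ac (7.43% of all tested genes). Under total reads 3 were called toward H3K27ac and 2 toward H3K4me3 (5.95% and 51.4% of all tested genes). Cacna1s, the voltage sensor of the T-tubule, held 40.3 to 96.7 RPM of H3K4me3 and 123 to 337 RPM of H3K27ac, without overlap, with a balance of 2.51 ± 0.08, or 0.88 in the 2.5 kb count. Stac3 and Jph2, which serve the coupling of T-tubule and reticulum, stood at 2.32 ± 0.24 and 2.19 ± 0.19, or 0.89 and 0.47 in the 2.5 kb count, and the fast calcium pump gene Atp2a1 at 1.39 ± 0.08, or 1.05. The slow pump gene Atp2a2 had a balance of −0.36 ± 0.04 and the release channel gene Ryr1 of 0.88 ± 0.09, neither of them called. At the neuromuscular junction 6 of 11 genes were tested and 3 were called toward H3K27ac (18.4% of all tested genes). These were the acetylcholine receptor subunit gene Chrnb1 (1.69 ± 0.25), and Dok7 (1.90 ± 0.19) and Rapsn (1.29 ± 0.21), whose products cluster the receptor. The kinase gene Musk was at −0.01 ± 0.13. Of the 6, 2 were called toward H3K27ac in the 2.5 kb count (background 7.43%). Under total reads 0 were called in either direction (background 5.95% toward H3K27ac and 51.4% toward H3K4me3).

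The bases before the starts of Ckm and Tcap, with both marks and a balance toward H3K27ac, and of Myc, with a balance toward H3K4me3, are shown as single examples of named genes and not as typical of a direction, for which the median CG counts were 14 toward H3K27ac and 17 toward H3K4me3; Ckm is chr7:19410844-19411093 and Tcap chr11:98383561-98383810, with 6 and 3 CG, and Myc is chr15:61985091-61985340 with 14, all on the plus strand. No annotated exon lies within any of the stretches shown.
Ckm: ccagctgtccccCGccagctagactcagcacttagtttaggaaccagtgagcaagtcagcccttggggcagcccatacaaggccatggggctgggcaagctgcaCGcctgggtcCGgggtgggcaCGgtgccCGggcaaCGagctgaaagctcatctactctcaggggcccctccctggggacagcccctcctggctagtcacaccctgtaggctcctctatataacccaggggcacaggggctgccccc
Tcap: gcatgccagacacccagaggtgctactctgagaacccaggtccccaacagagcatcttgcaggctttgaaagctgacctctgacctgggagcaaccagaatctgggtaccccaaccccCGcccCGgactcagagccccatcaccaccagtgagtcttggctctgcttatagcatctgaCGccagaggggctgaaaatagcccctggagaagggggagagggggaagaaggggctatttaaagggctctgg
Myc: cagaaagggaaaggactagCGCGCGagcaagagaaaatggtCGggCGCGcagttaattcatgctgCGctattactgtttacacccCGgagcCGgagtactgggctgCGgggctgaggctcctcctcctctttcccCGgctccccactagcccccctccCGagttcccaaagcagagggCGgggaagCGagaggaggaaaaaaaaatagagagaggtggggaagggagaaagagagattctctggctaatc

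Genes of glucose metabolism had the most calls of the lists with over 10 tested genes. Of 13 glycolysis and glycogen genes, 10 were called toward H3K27ac and none toward H3K4me3 (background 18.4% and 11.6%), with a median balance of 1.44, but in the 2.5 kb count none was called and the median was 0.40. Hk2, the insulin-regulated hexokinase gene of muscle, had a balance of 2.01 ± 0.09 with medians of 119 RPM of H3K4me3 and 261 RPM of H3K27ac, higher for H3K27ac in 10 of 10 animals. Pygm, which encodes muscle glycogen phosphorylase, stood at 1.90 ± 0.09 and the phosphofructokinase gene Pfkm at 1.803 ± 0.07. Gapdh and Ldha were called at 1.16 ± 0.10 and 1.18 ± 0.05 and stood at −0.30 and −0.12 in the 2.5 kb count. Eno3 was not called (0.53 ± 0.09). Of 13 mitochondrial energy genes, 4 were called toward H3K27ac: Cox7a1 (2.01 ± 0.21), the uncoupling protein gene Ucp3 (1.90 ± 0.10), the nuclear receptor gene Esrra (1.54 ± 0.06) and the citrate synthase gene Cs (1.34 ± 0.26). Of the 13, 1 was called in the 2.5 kb count, while under total reads 1 was called toward H3K27ac and 2 toward H3K4me3 (5.95% and 51.4% of all tested genes). Tfam and Cycs, which are expressed in all tissues, had balances of −0.57 ± 0.03 and −0.46 ± 0.04, below 0 in 10 of 10 animals and short of the 2-fold limit.

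Of 12 clock genes, 6 were called toward H3K27ac (18.4% of all tested genes). Toward H3K4me3 1 was called, near the background of 11.6%. Tef (3.37 ± 0.21), Nr1d1 (1.75 ± 0.17), Ciart (1.71 ± 0.09), Per2 (1.62 ± 0.11), Cry2 (1.46 ± 0.08) and Per3 (1.37 ± 0.16) were called toward H3K27ac. Per1 (0.79 ± 0.14), Nr1d2 (0.46 ± 0.12), Dbp (0.14 ± 0.05) and Cry1 (−0.54 ± 0.18) were not called. Clock, which with Arntl forms the activating pair, was called toward H3K4me3: it held 108 to 164 RPM of H3K4me3 (median 130) and 23.2 to 35.1 RPM of H3K27ac (median 29.9), with no overlap and a balance of −1.26 ± 0.05. Arntl stood at −0.92 ± 0.08, not called. In the 2.5 kb count 1 of the 12 was called, toward H3K27ac (background 7.43%). The Tef domain of H3K27ac had a mean width of 121520 bp and held 207 to 1023.6 RPM (median 833), above its 103 to 185 RPM of H3K4me3 without overlap. That median and maximum are also those of Tob2 and Phf5a, and in the 2.5 kb count Tef stood at 0.76.

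The regulators of muscle fate were mixed. Of 11 tested myogenic transcription factors, 3 were called toward H3K27ac and 1 toward H3K4me3, near the 18.4% and 11.6% of all tested genes. In the 2.5 kb count 2 were called toward H3K27ac and 0 toward H3K4me3 (7.43% and 0.46% of all tested genes). Myog, the differentiation factor myogenin, held 11.2 to 26.1 RPM of H3K4me3 (median 14.8) and 28.1 to 116 RPM of H3K27ac (median 58.6), did not overlap between marks, with a balance of 2.76 ± 0.19, or 2.04 in the 2.5 kb count. Mef2d (1.37 ± 0.08) and Mef2c (1.11 ± 0.32) were called likewise in whole peaks. Pax7, the marker of satellite cells, was called toward H3K4me3: 25.2 to 59.3 RPM (median 32.4) against 2.5003 to 12.5 RPM of H3K27ac (median 7.70), with a balance of −1.49 ± 0.30 and an H3K27me3 peak in 10 of 10 muscles. In the 2.5 kb count Pax7 stood at 0.12. Myod1 had a balance of 0.39 ± 0.10. Pax3 had H3K4me3 in 10 animals, H3K27ac in 2 and H3K27me3 in 10. Of 10 muscle atrophy and growth genes, 2 were called, also near the background: Klf15 (1.57 ± 0.08) and Trim63, a ubiquitin ligase gene of atrophy (1.04 ± 0.06), were called toward H3K27ac. Foxo1 stood at −0.51 ± 0.04. In the 2.5 kb count 1 of these 10 genes was called toward H3K27ac and 0 toward H3K4me3.

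The ribosomal, enzyme and immediate early lists had medians within 0.18 of 0. Of 14 ribosomal protein genes, 4 were called toward H3K27ac (median −0.06; 18.4% of all tested genes were called in that direction), but 0 in the 2.5 kb count, and under total reads 0 toward H3K27ac and 7 toward H3K4me3, a direction in which 51.4% of all tested genes were then called. Of 15 genes for enzymes that write or erase the marks, Kmt2b alone was called (1.35 ± 0.26; median of the list 0.11), while in the 2.5 kb count 0 were called and under total reads 7 toward H3K4me3, also near that share. Of 10 immediate early genes, 2 were called toward H3K4me3 and none toward H3K27ac (median −0.18; 11.6% of all tested genes were called toward H3K4me3). These were Myc, with 123 to 152 RPM of H3K4me3 (median 137) against 28.2 to 41.2 RPM of H3K27ac (median 36.1) and a balance of −1.04 ± 0.04, and Egr2, at −1.08 ± 0.18 and with H3K27me3 in 10 of 10 muscles. With DESeq2 the list had 1 call toward H3K27ac and 0 toward H3K4me3 (21.2% and 7.28% of all tested genes), and in the 2.5 kb count it had 0 in either direction, with Myc at −0.37 and Egr2 at −0.24. The 3 tested developmental transcription factors were Gata6 (−1.45 ± 0.09) and Lhx2 (−1.70 ± 0.16), both called toward H3K4me3, and Wnt1 of the same list, a ligand gene (0.39 ± 0.17), not called; all 3 had H3K27me3 in 10 of 10 muscles. In the 2.5 kb count Gata6 (−0.26) and Lhx2 (−0.34) were not called, and Wnt1 was called toward H3K27ac (1.23).

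**Figure D5:**
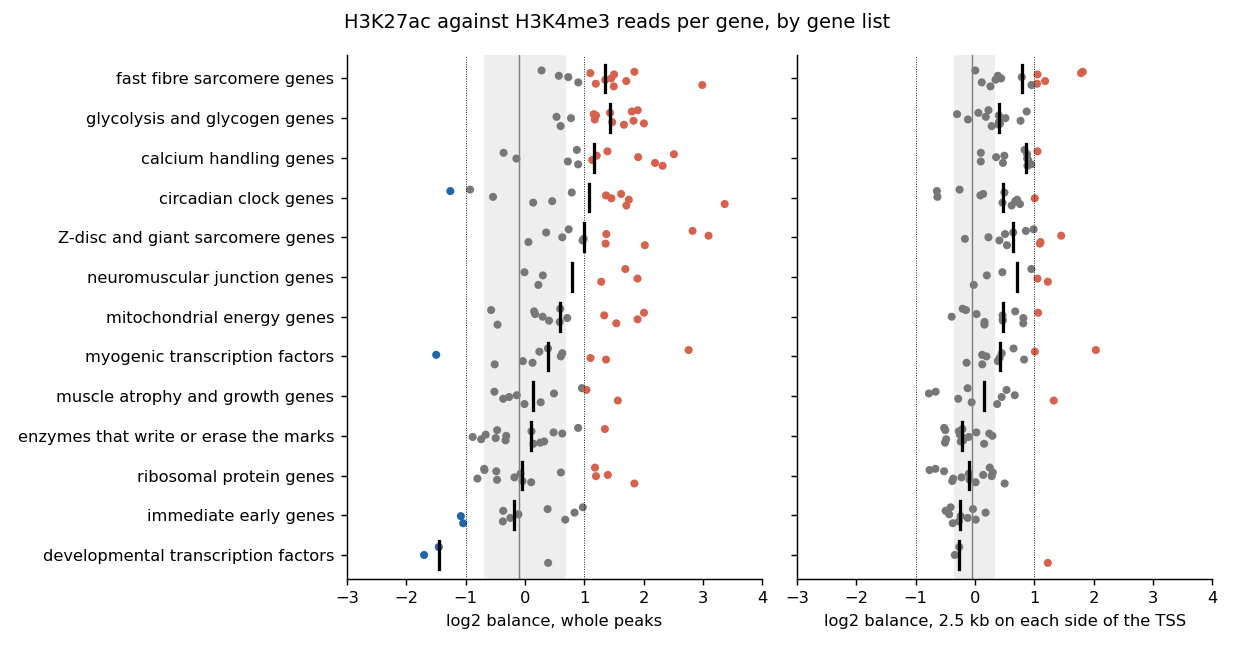
Log2 balance of H3K27ac over H3K4me3 reads per gene, with whole promoter peaks (left) and with reads within 2.5 kb of the TSS (right); points are tested genes, red at 1 or above and blue at −1 or below, black bars are list medians, and the grey line and band give the median and quartiles of all 12837 genes. The medians of the fast fibre, glycolysis and calcium handling lists lie right of the band on the left panel, and the glycolysis list moves to a median of 0.40 on the right panel.

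The calls of a list depended on the scaling, which shifts all genes alike. Under total reads, with 5.95% of all tested genes called toward H3K27ac and 51.4% toward H3K4me3, 1 of 13 fast fibre genes and 1 of 13 glycolysis genes were called toward H3K27ac. Of the clock genes 1 was called toward H3K27ac and 3 toward H3K4me3, of the myogenic factors 1 and 2, of the atrophy genes 0 and 4, and of the immediate early genes 0 and 6. The medians of the neuromuscular (−0.14), myogenic factor (−0.55), mitochondrial (−0.35) and atrophy lists (−0.81) were negative. Relative to the median of all tested genes, the fast fibre median lay at 1.46 in whole peaks and at 0.84 in the 2.5 kb count, the glycolysis median at 1.54 and 0.45, and the calcium handling median at 1.28 and 0.91. The lists share genes, such as Myh4, Mylpf, Tnnt3 and Acta1 in both the myofibre markers (8 of 10 called toward H3K27ac) and the fast fibre genes, and are not independent of each other.

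Markers of other cells in the muscle were also compared (18.4% of all tested genes were called toward H3K27ac). None of 7 endothelial genes was called (median 0.43), with Pecam1 at 0.80 ± 0.21. Of 5 fibroblast genes, the collagen gene Col1a1 was called toward H3K27ac (1.82 ± 0.33), of 4 smooth muscle and pericyte genes Tagln (2.89 ± 0.29) and Pdgfrb (1.06 ± 0.13), and of 3 Schwann cell genes the myelin gene Prx (2.77 ± 0.39). The 2 adipocyte, 1 erythroid and 1 neuron gene tested were not called, and no macrophage marker had both marks in every animal. In the 2.5 kb count 3 of 5 fibroblast and 3 of 4 smooth muscle genes were called toward H3K27ac (background 7.43%).

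The highest balances belonged to starts with low H3K4me3 under long acetylated domains. By the naming rule, the 10 highest were Smim24, LOC115490137, G430095P16Rik, 0610039H22Rik, 4931406H21Rik, Lncppara, Card9, Hpn, Trak1 and Fgf1, with balances from 7.03 to 5.14. Of these 10, 5 are long noncoding RNA genes, against 10.5% of genes called toward H3K27ac and 8.13% of all tested. None of the 10 had H3K27me3 in any muscle, which was called in at least 1 muscle at 24.6% of genes with both marks. Smim24 held 3.55 to 165 RPM of H3K4me3 (median 6.17) and 450 to 632 RPM of H3K27ac (median 566), and its acetylated domain, with a mean width of 73900 bp, contained in every animal the start of Nfic, where H3K4me3 had a mean of 295 RPM. Lncppara, a noncoding neighbor of the fatty acid regulator Ppara, held 8.36 to 42.4 RPM of H3K4me3 and 473 to 608 RPM of H3K27ac. Its domain of 80660 bp held the assigned TSS of no other gene in any animal, with 1 TSS per gene considered. Trak1, a mitochondrial adaptor gene, was likewise the only gene with its assigned TSS in its domain of 63940 bp, and had a balance of 5.30 ± 0.34. In the 2.5 kb count these 10 genes ranged from 2.81 to 4.12.

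The 10 lowest called balances were those of Sox21 with Gm4675, Foxq1, Efna5, H3c11, Foxl2 with Foxl2os, Ric3, Shox2 and Otx1, from −2.52 to −2.19, and 8 of these 10 genes had H3K27me3 in 10 of 10 muscles, against 16.97% of all genes called toward H3K4me3 and 7.53% of all tested. Sox21 and Gm4675 are read from the same H3K4me3 peak, as are Foxl2 and Foxl2os. Sox21, a neural factor, held 28.7 to 44.4 RPM of H3K4me3 (median 38.5) and 2.44 to 4.67 RPM of H3K27ac (median 3.39), with an H3K4me3 peak of 6060 bp around an H3K27ac peak of 1800 bp. Foxq1, a forkhead gene, held 46.3 to 78.4 RPM against 3.56 to 10.2 RPM. Shox2, a limb homeobox gene, held 40.1 to 138 RPM against 3.59 to 15.4 RPM, and its balance of −2.20 stood at −0.58 in the 2.5 kb count. H3c11 is a histone gene with near-identical copies, so its reads are uncertain. Cortical H3K27ac was called in 9 of 9 libraries at all 10 genes except Shox2, where it was called in 0; of all genes with both marks 94.3% had it in 9 of 9.

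The widest H3K27ac domains at promoters with both marks were those of Zbtb16 (161060 bp), Dab2ip (136840 bp), Zmiz1 (125840 bp) and Tob2 with Phf5a (125740 bp), where the H3K4me3 peaks measured 9460 to 21100 bp. Zbtb16, a zinc finger gene responsive to glucocorticoids, held 207 to 364 RPM of H3K4me3 and 190 to 1783 RPM of H3K27ac (median 1112). The balance of Zbtb16 was 2.76 ± 0.29, or 0.76 in the 2.5 kb count, while Zmiz1, at 2.297 ± 0.03, stood at −0.56 in that count. The widest H3K4me3 peaks were those of Sfi1 (74180 bp), a peak of 41380 bp over Hoxc10, Hoxc9 and Gm36878, and Eif4enif1 beside Sfi1 (40800 bp). Eif4enif1 and Sfi1 had the same highest H3K4me3 value, 2854 RPM, and their peaks were not separate in every animal. At Sfi1 the H3K27ac peak measured 76640 bp. At the Hoxc cluster, of posterior body identity, H3K27ac was 62240 bp wide and the balance was 0.39 ± 0.07, with no cortical H3K27ac in any library. At Sfi1 H3K27me3 was also called in 10 of 10 muscles, so all 3 marks were called at its start. H3K4me3 there reached 1568 to 2854 RPM, against 73.2 RPM at the median gene with both marks. How uniquely reads map at Sfi1 was not tested, so these levels and calls are uncertain.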

How the data were processed

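Chromatin immunoprecipitation followed by sequencing was analyzed from peak lists, 1 per animal and mark. Alignment by the authors used BWA and mm10; SAMtools served to drop duplicates and poorly mapped reads. Each library's peaks were then called on their own with epic2, of unstated version, in 200 bp windows at an FDR below 0.05, allowing 2 gaps for either active mark and 3 for the Polycomb mark. The deposited value used is the read count of each peak; the deposited peak score was used only to rank peaks. Groups followed the titles, and replicate numbers pair the marks by animal: the deviations of an animal's libraries correlated at 0.0658 to 0.284, highest for the own pair in 9 of 10 animals. The file name of H3K4me3 replicate 6 carries no mark, and its label was followed.

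Genes, TSSs and promoter sequences came from RefSeq (GRCm38.p6), with 1 TSS per gene and promoter peaks within 1 kb. Single values were compared by exact paired permutation tests (SciPy 1.17.1, two-sided, Benjamini-Hochberg adjusted). Reads of promoter peaks were tested with edgeR 4.0.16 (quasi-likelihood, TMM, animal as block) in R 4.3.3, with calls at an FDR under 0.1 and at least 2-fold. DESeq2 1.42.0, other scalings, filters, windows and left-out animals were tried as alternatives, and the scripts were tested on simulated data. A peak caller lists no reads below its threshold, so absence means not called. Members and gene lists were chosen with earlier results of these data known. Named genes are the lists' members, the 10 highest and 10 lowest called balances of constant sign, the 10 with the most reads in each class with a single mark, and the 5 widest promoter peaks per mark. Reads in autosomal peaks range per library from 9025744 to 27042958 and limit precision for promoters with few reads. Some genes and sequences are not reported here.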

Additional observations from a re-analysis of the deposited data

Results flagged for a closer look

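In 30 of 154 sets of 10 animals, the highest or lowest animal stood apart from the nearest other by more than Dixon's limit for its share of the range, which chance gives in about 1 of 20 sets. Of these, 10 were H3K4me3 levels in animal 6, whose H3K4me3 library covered 106 Mb: Actn3 at 162 RPM, Aldoa at 509, Ckm at 234, Hk2 at 228, Mef2d at 443, Myh4 at 148, Myog at 26.1, Nr1d1 at 582, Ryr1 at 133 and Ttn at 261 RPM. Of the 68 checked genes with H3K4me3 in every animal, 33 had their highest level in animal 6 and 1 in animal 3, whose library covered 108 Mb. Among all genes with both marks 11.5% were highest in animal 6. The part of the wide peaks of animal 6 in these levels was not tested.

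Other H3K4me3 levels that stood apart were Gata6 at 51.7 RPM (lowest, animal 7), and Kmt2b at 119 RPM and Prx at 19.5 RPM (highest, animal 5). For H3K27ac, animal 3 was highest for Chrnb1 at 218 RPM, Col1a1 at 289, Mef2c at 328 and Rpl3 at 188 RPM. Animal 6 was highest for Lhx2 at 9.28 RPM and Myh4 at 160 RPM, animal 10 for Egr2 at 63.4 RPM, animal 1 for Prx at 191 RPM and animal 4 for Rapsn at 98.2 RPM. The lowest H3K27ac levels that stood apart were Jph2 at 85.0 RPM in animal 10, Mef2d at 316 RPM and Mylpf at 92.3 RPM in animal 9, Pdgfrb at 34.8 RPM in animal 7, and Per2 at 93.7 RPM and Tef at 207 RPM in animal 8. Animal 9 had the most H3K27ac peaks, 67089, and animal 6 the most H3K27ac reads in peaks, 27042958.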

How the results depend on the processing

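Of the alternatives to the single-value comparisons, 159 kept direction and side of the threshold, 12 lost significance and 1 reversed; with equally many peaks per library the differences in overlap (−15.1 points), in peaks within 1 kb (−11.7 points), in width (4930 bp) and in covered length (157 Mb) kept direction but moved by over 1.5 times. The share of genes with a promoter peak differed by 0.419 percentage points in the 6 animals whose file names carry no run number, by 0.121 over protein-coding genes, and by −6.17 with equally many peaks per library. In the 4 animals with a run number no test could pass (smallest exact p 0.125), and H3K27ac minus H3K4me3 was 33182 peaks, 900 bp in width, 265 Mb, −33.7 percentage points within 1 kb, 3.65 kb in distance, −61.6 points in overlap, 2.19 points in genes, 0.91 in log2 width and 479 bp in reach, with 67.7 points in H3K27me3. Of reads per gene, 3848 calls became 7365 with total reads, 6275 with uncalled promoters at 0 reads, 10725 without the fold limit and 1013 with reads within 2.5 kb. In that 2.5 kb count the balance changed sign, among called genes named here, for Gapdh (−0.30), Kmt2b (−0.21), Ldha (−0.12), Pax7 (0.12), Tnnc1 (−0.056), Nisch (−0.21) and Zmiz1 (−0.56). The check covered 94 named genes, without Nisch and with genes that were never called. Of these, 6 changed sign and lost their call, and 35 kept direction but lost their call. The cause was not tested. Without the replicate block 4042 genes were called, with DESeq2 3662, with each animal left out 3788 to 3940, and without animals 3 and 6, chosen after seeing the data, 3673. Depth limits promoters with few reads, where an absent peak means only that none was called.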
